A study of Mus musculus with 4 samples.

Results

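The genes described here are 10 components of fibroblast growth factor (FGF) and platelet-derived growth factor (PDGF) signalling, chosen by symbol from the 24391 genes counted in quiescent mouse embryonic fibroblasts (MEFs). They comprise the ligands *Fgf2*, *Fgf7*, *Fgf10* and *Pdgfc*, the receptors *Fgfr1*, *Fgfr2*, *Pdgfra* and *Pdgfrb*, and the feedback inhibitors *Spry2* and *Dusp6*. All 10 had enough counts to be tested, as had 13668 genes in all. Poly(A) RNA of primary MEFs from E13.5 embryos was sequenced in 2 WT and 2 *Phf2* KO libraries, to ask whether loss of Phf2, a reader of H3K4me3 nucleosomes, changes gene expression. All 4 libraries carry the genotype *Phf2* flox/flox, ERCre/+, in which CreERT2, a Cre recombinase activated by 4-hydroxytamoxifen (4-OHT), is expressed from the Rosa26 locus. WT here thus means floxed cells labelled as without tamoxifen, and a tamoxifen label is carried by the *Phf2* KO libraries only. The protocol gives 0.5 µM 4-OHT for 7 days in medium with 2% charcoal-treated serum and is worded alike for all samples, so that the medium of the WT cells is not stated by name. Loss of Phf2, Cre activity, 4-OHT and any difference in medium cannot be told apart in these libraries.

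FGF ligands bind receptor tyrosine kinases together with heparan sulfate, and PDGF ligands bind a related pair of receptors that mark mesenchymal cells. Both kinds of receptor activate Ras and ERK, and ERK activity induces *Spry2* and *Dusp6*, whose products dampen the same pathway. In embryos, mesenchymal Fgf7 and Fgf10 signal mainly to epithelia, through an isoform of Fgfr2, while fibroblasts respond to PDGF as a mitogen.

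The libraries held between 21094743 and 26094268 counts. *Phf2* itself had 3244 and 3680 counts in the WT libraries against 1454 and 2158 in *Phf2* KO (replicates 1 and 2), and the *Phf2* KO mean was 57.9% of the WT mean. This difference, in the deleted gene, was itself not called by edgeR's quasi-likelihood test with genotype as the only term (log2 fold change -0.79, unadjusted p = 0.00332, adjusted p = 0.999). DESeq2 gave an adjusted p = 0.00321, so an adjusted p of 0.999 does not show that a gene did not differ. A count of RNA per gene does not measure how much Phf2 protein was left. For that the paper reported immunoblots of *Phf2* KO MEFs and the absence of almost all Phf2 ChIP-seq peaks in them. As CPM (counts scaled by TMM-normalized library size), the 12 fibroblast markers examined summed to 84820 and 87720 CPM in WT and to 76330 and 73630 CPM in *Phf2* KO MEFs. In this sum both *Phf2* KO libraries were below both WT libraries. Taken singly, 7 of the 12 markers had both *Phf2* KO libraries below both WT libraries and 0 had both above. Over all genes tested these shares were 18% and 15.5%. The 14 macrophage markers summed to 3934 and 862 CPM in WT and to 4492 and 1360 CPM in *Phf2* KO, higher in replicate 1 of both groups. The 9 pericyte and smooth muscle markers summed to between 884 and 1446 CPM, the 7 neural markers to between 79.7 and 96.9, the 8 endothelial markers to between 11.5 and 22.8, the 6 skeletal muscle markers to between 0.82 and 1.81 and the 6 epithelial markers to between 0.482 and 0.998. Of the endothelial markers, *Tie1* and *Cldn5* were at 0 counts in all libraries. *Xist* was counted 10042 and 8336 times in replicate 1 and 3 and 12 times in replicate 2 of WT and *Phf2* KO, and *Ddx3y*, on the Y chromosome, 6 and 10 against 1271 and 1295 times. The libraries thus also parted by replicate number, and each comparison below is given within each number too. The part of these differences in the results was not tested.

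Compared per length, the receptor transcripts *Pdgfrb* and *Fgfr1* were the most abundant of the 10, while *Fgfr2* was among the lower ones. In normalized CPM per kb of annotated exon, *Pdgfrb* had a mean over the 4 libraries of 150.1 (range 125.2 to 164.5), followed by *Fgfr1* at 60.2 (57.0 to 66.0). *Spry2* came next with 41.9 CPM per kb (37.8 to 44.9), then *Pdgfra* with 20.9 (19.7 to 22.7) and *Fgf7* with 16.0 (14.5 to 17.8). None of these 5 overlapped its neighbor in the order. *Dusp6* (5.56 CPM per kb), *Fgfr2* (5.20) and *Pdgfc* (4.97) followed, with ranges that overlapped between neighbors. *Fgf2* had 3.29 CPM per kb (2.76 to 3.87) and *Fgf10* 1.15 (0.325 to 2.30), the lowest mean and the widest range relative to it. Within each library, *Pdgfrb* was 5.52- and 8.35-fold as abundant per kb as *Pdgfra* in WT, against 7.18- and 7.93-fold in *Phf2* KO, and *Fgfr1* was 12.7- and 12.0-fold as abundant as *Fgfr2* in WT, against 12.4- and 9.81-fold in *Phf2* KO. The *Phf2* KO ratios of *Pdgfrb* to *Pdgfra* lay within the range of the WT ratios, and those of *Fgfr1* to *Fgfr2* overlapped them. The level of *Fgfr2* per kb, and so its place in the order and its ratios, rests on its gene model in GENCODE M1.

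**Figure D1:**
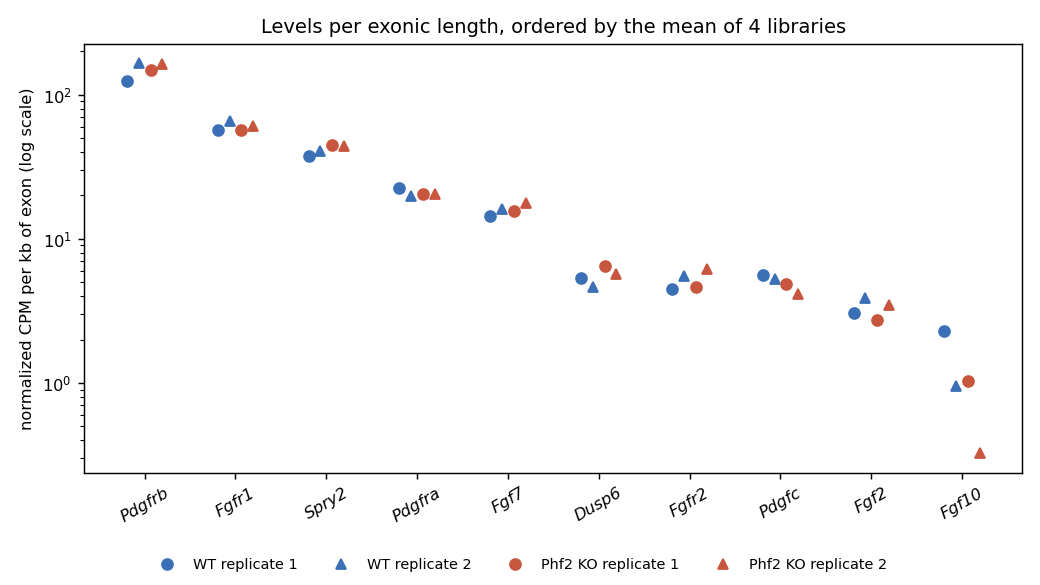
Normalized CPM per kb of annotated exon (log scale) for each of the 10 genes, with 1 point for each library, ordered by the mean of the 4 libraries. *Pdgfrb* is highest with a mean of 150.1, and *Fgf10* is lowest with a mean of 1.15 and the widest scatter.

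None of the 10 genes was called different between the groups at a threshold of 0.1 on the adjusted p-value. By the quasi-likelihood test of edgeR with genotype as the only term, and Benjamini-Hochberg adjustment over all 13668 genes, each had an adjusted p = 0.999. Of all genes tested, 0.00732% were called in either direction, a single gene that was lower, so that 0 calls among 10 genes is what this background gives. At an unadjusted p under 0.05 from the same test, 0 of the 10 genes and 4.21% of all genes passed. DESeq2, limma-voom and edgeR's likelihood ratio test with the same term also called 0 of the 10. With the replicate number added as a block, edgeR's quasi-likelihood test called 2 of the 10, *Fgf10* and *Pdgfc*, and 11% of all genes tested. At an unadjusted p under 0.05 from that blocked test, 2 of the 10 were higher (*Spry2* and *Dusp6*) and 2 lower. Over all 13668 genes, 1421 were higher and 1252 lower at that cutoff. Neither the labels nor the paper pair the libraries by number, so the block is an alternative. In 3 of the 10 genes the groups did not overlap, with *Spry2* and *Dusp6* above WT in both *Phf2* KO libraries and *Pdgfc* below WT in both, while over all genes tested the groups did not overlap in 33.5%. Both *Phf2* KO libraries were above both WT libraries in 15.5% of all genes and below them in 18%. The fitted log2 fold change was positive for 5 of the 10 genes and negative for 5, with a median of 0.03, against 0.01 over all genes tested. It lay within 0.5 log2 units of 0 for 9 of the 10, all but *Fgf10*, and for 12676 of all 13668 genes tested.

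**Figure D2:**
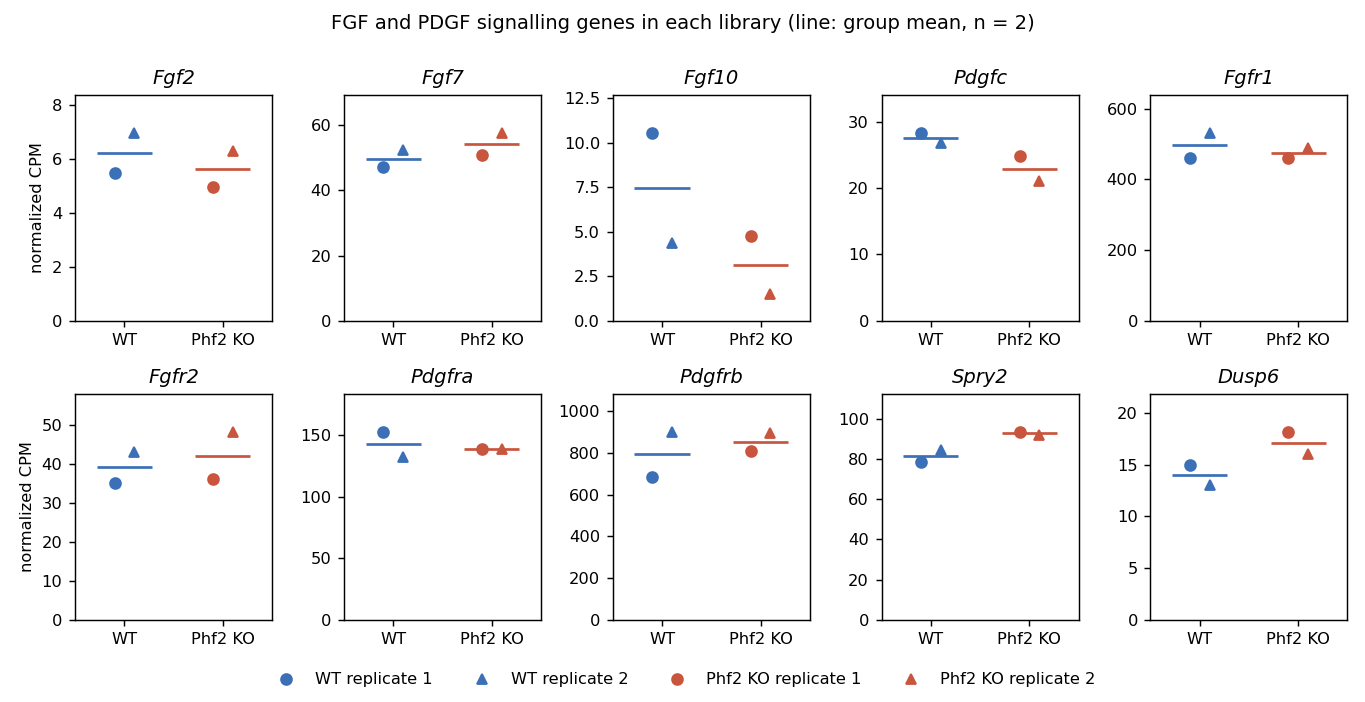
Normalized CPM of the 10 genes in each library, on axes that start at 0, with WT in blue, *Phf2* KO in red, circles for replicate 1, triangles for replicate 2 and a line at each group mean (n = 2). Only *Pdgfc*, *Spry2* and *Dusp6* have groups that do not overlap, and *Fgf10* differs between replicates within each group.

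The promoters of *Fgf10*, the gene of the 10 with the log2 fold change farthest from 0, and of *Pdgfc*, *Spry2* and *Dusp6*, in which the groups did not overlap, are shown as the 250 bases before the annotated start, from RefSeq on GRCm38.p6. CpG dinucleotides, in which H3K4me3-marked promoters are rich, are in capitals.
*Fgf10*, chr13:118714449-118714698, + strand: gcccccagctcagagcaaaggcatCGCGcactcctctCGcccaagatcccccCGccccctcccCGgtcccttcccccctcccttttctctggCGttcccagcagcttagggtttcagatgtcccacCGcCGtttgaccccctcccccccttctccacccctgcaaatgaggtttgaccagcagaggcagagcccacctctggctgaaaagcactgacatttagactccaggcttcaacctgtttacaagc
*Pdgfc*, chr3:81036166-81036415, + strand: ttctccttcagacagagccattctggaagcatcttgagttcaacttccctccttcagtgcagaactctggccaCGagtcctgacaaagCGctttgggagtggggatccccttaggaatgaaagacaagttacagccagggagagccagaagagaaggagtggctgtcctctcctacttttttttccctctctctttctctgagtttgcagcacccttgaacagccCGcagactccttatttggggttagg
*Spry2*, chr14:105896820-105897069, - strand: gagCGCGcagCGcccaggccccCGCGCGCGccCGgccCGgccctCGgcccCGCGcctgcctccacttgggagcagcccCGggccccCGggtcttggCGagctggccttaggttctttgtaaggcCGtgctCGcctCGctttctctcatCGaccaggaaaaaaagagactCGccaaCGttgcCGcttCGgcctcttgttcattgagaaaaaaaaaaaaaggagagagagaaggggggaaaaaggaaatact
*Dusp6*, chr10:99262981-99263230, + strand: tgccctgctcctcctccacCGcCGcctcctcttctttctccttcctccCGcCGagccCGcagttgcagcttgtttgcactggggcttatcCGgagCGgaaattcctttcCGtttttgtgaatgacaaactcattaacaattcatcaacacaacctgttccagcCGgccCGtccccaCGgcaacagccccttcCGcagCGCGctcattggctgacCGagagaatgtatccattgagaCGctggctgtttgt

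The windows of the feedback inhibitors held 23 CpG dinucleotides in *Spry2* and 16 in *Dusp6*, and those of these ligands 8 in *Fgf10* and 3 in *Pdgfc*. The median over 32841 promoter windows of this length was 6. Of the other genes with a window in the table, *Fgf2* had 20, *Fgf7* 6, *Pdgfra* 4 and *Fgfr2* 2, which makes 8 of the 10 genes matched. Both strands were searched for an ETS core (CCGGAA, in 12% of all windows), an AP-1 site (TGANTCA, 6.75%), a cyclic AMP response element (TGACGTCA, 1.55%), an oestrogen receptor core motif (AGGTCA, 14%) and the full oestrogen response element (0.0213%), which contains that core. These letters were found in 1 of the 8 windows, the oestrogen receptor core motif in that of *Fgf7*.

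*Fgf10*, the ligand that drives budding of lung and limb in embryos, differed most. It had 255 and 113 counts in the WT libraries against 99 and 36 in *Phf2* KO (replicates 1 and 2), or 10.6 and 4.35 against 4.78 and 1.5 CPM. The groups overlapped, since *Phf2* KO replicate 1 lay just above WT replicate 2, and replicate 1 was the higher library in both groups. The means were 7.46 ± 4.40 (SD, n = 2) and 3.14 ± 2.32 (SD, n = 2) CPM, and the log2 fold change was -1.26 (standard error 0.70, 95% interval -3.11 to 0.60, unadjusted p = 0.139 by edgeR). With the replicate number as a block, an alternative with 1 residual degree of freedom, edgeR's quasi-likelihood test gave an adjusted p = 4.1e-09. A value this small rests on variance that the test takes across all genes, and does not measure how well 2 libraries per group repeat for *Fgf10*. Within replicate numbers the log2 ratio of *Phf2* KO to WT was -1.15 for replicate 1 and -1.54 for replicate 2, so *Fgf10* was lower in *Phf2* KO within each. A log2 ratio beyond 0.3 in the same direction within both numbers was found for 9.32% of all genes tested. That cutoff is well below the ratios of *Fgf10*, and the share of genes with ratios as large as these was not counted. The fitted value depended on single libraries. It was -0.47 without WT replicate 1, -1.78 without WT replicate 2, -2.31 when *Phf2* KO replicate 1 was omitted and -0.65 when *Phf2* KO replicate 2 was. Each of these fits leaves the replicate numbers unequal between the groups, so its value also takes in the difference between replicates. On mm9, *Fgf10* occupies chromosome 13 between 119458598 and 119580922 (+ strand) and shares 123 nt of exon with *Gm16263* on the opposite strand, 2.67% of its exonic length.

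*Fgf10* was also the only member in which the replicates differed by more than 1 log2 unit in the same direction in both groups. The log2 ratio of replicate 1 to replicate 2 was 1.28 in WT and 1.67 in *Phf2* KO MEFs. For the other 9 genes it lay between -0.42 and 0.24 in the 2 groups. Of all genes tested, 4.79% differed between replicates beyond 1 log2 unit in both groups, and all 14 macrophage markers did. Whether the cells that made up these cultures bear on the level of *Fgf10* was not tested. In bulk RNA, fewer cells of a type and less RNA in each cell cannot be told apart.

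**Figure D3:**
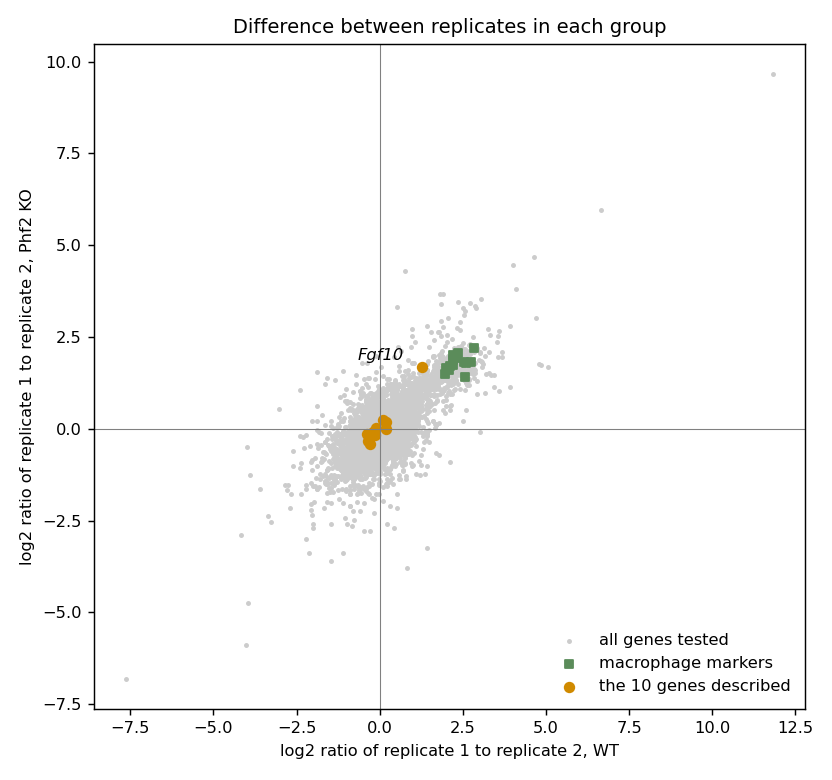
The log2 ratio of replicate 1 to replicate 2 in *Phf2* KO (vertical) against that in WT (horizontal), for genes tested with counts in all 4 libraries. *Fgf10*, at 1.28 and 1.67, lies below and left of most of the macrophage markers in green, and the other 9 genes lie near 0.

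The other FGF ligands differed little. *Fgf7*, also called keratinocyte growth factor, had 1134 and 1357 counts in the WT libraries against 1055 and 1388 in *Phf2* KO, or 47.0 and 52.3 against 50.9 and 57.7 CPM. Replicate 2 was the higher library in both groups and the groups overlapped. The log2 fold change was 0.13 (95% interval -0.17 to 0.43), which places the *Phf2* KO level between 0.89 and 1.35 times that of WT. Relative to *Fgf10* per kb, *Fgf7* was 6.30- and 17.0-fold as abundant in WT, against 15.1- and 54.6-fold in *Phf2* KO, higher in *Phf2* KO within each replicate number but with overlapping groups. *Fgf2*, a ligand of broad receptor range that is released without a signal peptide, had 132 and 181 counts in the WT libraries against 103 and 151 in *Phf2* KO, or 5.47 and 6.97 against 4.97 and 6.28 CPM. The 95% interval was wide, -0.74 to 0.45 around a log2 fold change of -0.15. The sign turned when WT replicate 2 or *Phf2* KO replicate 1 was left out. *Fgf2* lies on chromosome 3 from 37211441 to 37304299 (+ strand) and shares 242 nt, 13.4% of its exonic length, with *Nudt6* on the opposite strand. *Fgf7* lies on chromosome 2 from 125860394 to 125916921 (+ strand) and shares no exon with another gene.

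*Pdgfc* encodes a ligand of the PDGF receptor alpha that is secreted in a latent form. It had 685 and 695 counts in the WT libraries against 516 and 507 in *Phf2* KO, or 28.4 and 26.8 against 24.9 and 21.1 CPM. Both *Phf2* KO libraries lay below both WT libraries. With means of 27.6 ± 1.16 (SD, n = 2) and 23.0 ± 2.70 (SD, n = 2) CPM, the log2 fold change was -0.26 (standard error 0.13, 95% interval -0.60 to 0.07, unadjusted p = 0.097 by edgeR). The log2 ratio was -0.19 within replicate 1 and -0.34 within replicate 2. With the replicate number as a block, the adjusted p was 0.0882 by edgeR's quasi-likelihood test. *Pdgfc* lies on chromosome 3 from 80840338 to 81017962 (+ strand) and shares 147 nt with *Gm16000* on the opposite strand.

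The receptors were counted deeply and differed little between the groups. *Fgfr1*, the main FGF receptor of mesenchyme, had 11084 and 13811 counts in the WT libraries against 9530 and 11741 in *Phf2* KO, or 460 and 532 against 460 and 488 CPM. Its log2 fold change of -0.07 had a 95% interval of -0.37 to 0.24, or 0.776 to 1.18 times the WT level. *Fgfr2*, whose epithelial and mesenchymal isoforms a count per gene does not part, had 844 and 1117 counts in the WT libraries against 745 and 1158 in *Phf2* KO, or 35.0 and 43.0 against 35.9 and 48.1 CPM. For both FGF receptors the groups overlapped, replicate 2 was the higher library in each group, and the sign of the fold change turned with the library left out. The log2 fold change of *Fgfr2* was 0.11, with a 95% interval of -0.40 to 0.61.

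*Pdgfra*, which binds all PDGF chains but PDGF-D and is widely used as a marker of fibroblasts, had 3686 and 3443 counts in the WT libraries against 2874 and 3334 in *Phf2* KO. In CPM these were 152.9 and 132.6 against 138.6 and 138.6, so that both *Phf2* KO libraries lay between the WT libraries. The log2 fold change was -0.04 (95% interval -0.31 to 0.23), or 0.807 to 1.17 times the WT level. *Pdgfrb*, the receptor for PDGF-B and PDGF-D, had 16535 and 23387 counts in the WT libraries against 16770 and 21487 in *Phf2* KO, or 686 and 901 against 809 and 893 CPM. Here too both *Phf2* KO libraries lay between the WT libraries. Its log2 fold change was 0.10 (95% interval -0.33 to 0.54), with 0.24 within replicate 1 and -0.01 within replicate 2. Differences of 1 log2 unit in either direction thus lay outside the 95% intervals of all 4 receptors. On mm9, *Fgfr1* lies on chromosome 8 (26624126 to 26686186, + strand) under 2 gene entries, *Fgfr2* on chromosome 7 (137305965 to 140315033, - strand), *Pdgfra* on chromosome 5 (75548316 to 75594229, + strand) and *Pdgfrb* on chromosome 18 (61204804 to 61244715, + strand). *Fgfr2* shares 314 nt of exon with *Ctbp2* on the same strand, 4.03% of its exonic length, and *Fgfr1* shares 125 nt with *Gm16159* on the opposite strand. The span printed for *Fgfr2* is far wider than those of the other receptors. This span and the exonic length are those of its model in GENCODE M1, and the level of *Fgfr2* per kb depends on that model. Whether the counts rest on the same model is not stated.

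The feedback inhibitors were the 2 members with both *Phf2* KO libraries above both WT libraries. *Spry2*, whose product restrains the activation of Ras by receptor tyrosine kinases, had 1900 and 2199 counts in the WT libraries against 1941 and 2214 in *Phf2* KO, or 78.8 and 84.7 against 93.6 and 92.1 CPM. The means were 81.7 ± 4.18 (SD, n = 2) and 92.8 ± 1.12 (SD, n = 2) CPM, 113.6% of WT. The log2 fold change of 0.18 had a standard error of 0.08 and a 95% interval of -0.03 to 0.39 (unadjusted p = 0.0738 by edgeR), and the ratios within replicates 1 and 2 were 0.25 and 0.12. *Dusp6*, a phosphatase that inactivates ERK in the cytoplasm, had 361 and 339 counts in the WT libraries against 377 and 385 in *Phf2* KO, or 15.0 and 13.1 against 18.2 and 16.0 CPM. The means were 14.0 ± 1.35 (SD, n = 2) and 17.1 ± 1.54 (SD, n = 2) CPM, 122.0% of WT. The log2 fold change was 0.29 (standard error 0.14, 95% interval -0.09 to 0.67, unadjusted p = 0.109 by edgeR), and the ratios within replicates were 0.28 and 0.29. Neither difference passed this test over all genes. *Spry2* lies on chromosome 14 (106291166 to 106296036, - strand) and *Dusp6* on chromosome 10 (98725865 to 98730122, + strand), and neither shares exon sequence with another annotated gene.

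**Figure D4:**
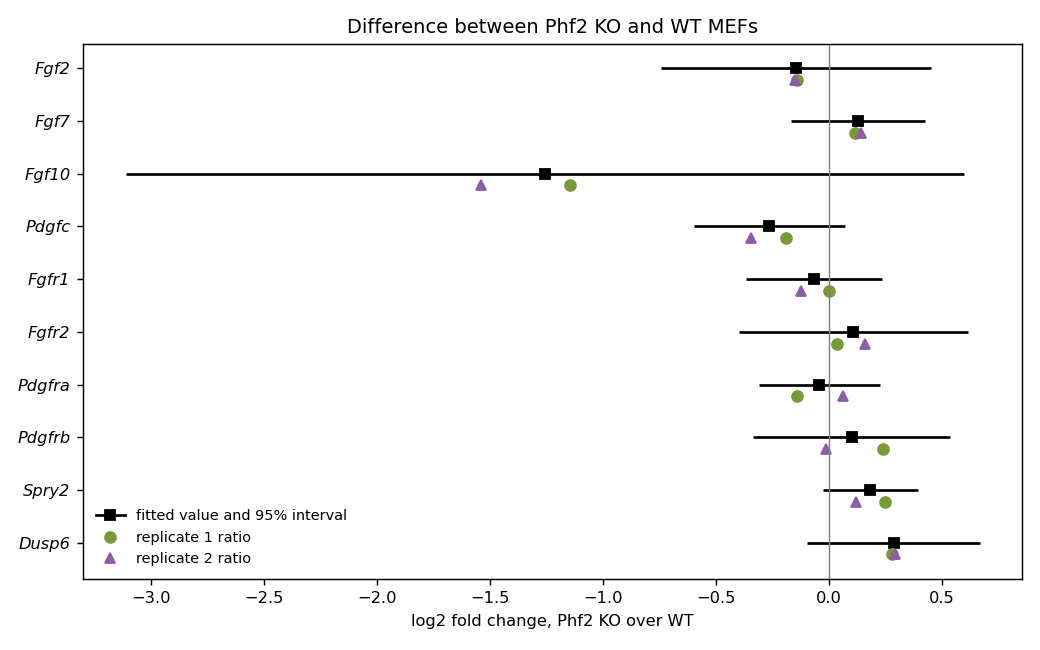
Log2 fold change of *Phf2* KO over WT for the 10 genes, with the fitted value and its 95% interval from edgeR's quasi-likelihood fit (black) and the ratios within replicate 1 (green) and replicate 2 (purple). Every interval includes 0, and that of *Fgf10*, from -3.11 to 0.60, is the widest.

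The wider pathway was examined through 7 lists ordered by role, which hold 96 genes, the 10 members included. Of these, 81 were tested and 0 were called by edgeR's quasi-likelihood test. At an unadjusted p under 0.05, 1 was higher and 2 were lower, against 1.54% and 2.67% of all genes tested. DESeq2 called 1 of the 86 to which it gave an adjusted p, *Pik3r1*, against 0.399% of all genes, and limma-voom and edgeR's likelihood ratio test called 0. The groups did not overlap in 28 of the 81, 14 above WT and 14 below, near the 33.5% of all genes in which they did not overlap.

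The list of FGF ligands holds 22 genes named *Fgf*, not all of which encode secreted ligands (*Fgf11*, *Fgf13* and *Fgf14* are among them). Of these, 13 were tested, and 7 had at most 3 counts in every library. The median log2 fold change of those tested was 0.10. *Fgf18*, a ligand of mesenchyme and cartilage, was the most abundant of them in CPM, with 55.6 and 95.9 in WT against 72.6 and 96.4 in *Phf2* KO (log2 fold change 0.16). Of 7 FGF receptors and coreceptors, 4 were tested (median 0.17), among them *Fgfrl1*, which lacks a kinase domain, with 104.0 and 160.2 CPM in WT and 134.1 and 177.1 CPM in *Phf2* KO. The klotho coreceptor genes *Kl* and *Klb*, which endocrine FGFs need, were too low to be tested. All 7 PDGF ligand and receptor genes were tested (median 0.10), and *Pdgfrl*, a receptor-like gene, had 74.7 and 94.3 against 91.7 and 108.2 CPM. Of the genes for release and processing of ligands, 5 of 6 were tested (median -0.04). *Plat*, the protease that activates PDGF-C, had 131.7 and 121.9 CPM in WT and 141.0 and 105.3 in *Phf2* KO, with overlapping groups. *Furin*, which cleaves PDGF-A and PDGF-B precursors, had 177.7 and 200.9 against 236.3 and 218.8 CPM. The groups did not overlap for *Furin*, which was not called by this test.

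All 26 genes of the relay from receptor to ERK and Akt were tested (median 0.04). Within 0.5 log2 units of 0 lay 12676 of all 13668 genes tested and 25 of these 26. The exception was *Pik3r1*, the p85 alpha regulatory subunit of phosphoinositide 3-kinase, which PDGF receptors recruit. It was at 127.7 and 138.9 CPM in WT and at 92.5 and 95.04 CPM in *Phf2* KO MEFs, below WT in both libraries. The log2 fold change was -0.51 (SE 0.08), with an unadjusted p = 0.00249 and an adjusted p = 0.999 by edgeR's quasi-likelihood test, and DESeq2 gave an adjusted p = 0.00911. The most abundant genes of this list were *Akt1*, with 685 and 761 against 751 and 756 CPM, *Ptpn11*, with 296.4 and 334.4 against 310.3 and 342.8 CPM, and *Map2k2*, with 184.7 and 210.9 against 198.5 and 189.7 CPM. Their groups overlapped.

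Among 15 feedback inhibitors tested the median was -0.08, with 6 positive and 9 negative. *Spry1*, the most abundant of them in CPM, was at 184.7 and 221.0 in WT against 227.9 and 232.8 in *Phf2* KO with no overlap of the groups (log2 fold change 0.18), and *Dusp7* at 56.9 and 41.9 against 55.6 and 38.6 CPM, a log2 fold change of -0.07. Of 12 genes transcribed in response to ERK, 11 were tested (median 0.12). *Fos* was at 19.4 and 16.3 CPM in WT and at 28.1 and 25.4 CPM in *Phf2* KO (log2 fold change 0.59, standard error 0.14, unadjusted p = 0.00974 by edgeR). *Etv4*, an ETS factor induced by FGF, went the other way, with 2.53 and 2.97 CPM in WT and 1.74 and 1.70 CPM in *Phf2* KO (log2 fold change -0.67, standard error 0.24, unadjusted p = 0.0412 by edgeR). Neither was called over all genes by this test. *Ccnd1*, *Egr1* and *Ier2*, the most abundant of this list with *Ccnd1* highest, had log2 fold changes of -0.09, 0.21 and 0.32, with overlapping groups.

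**Figure D5:**
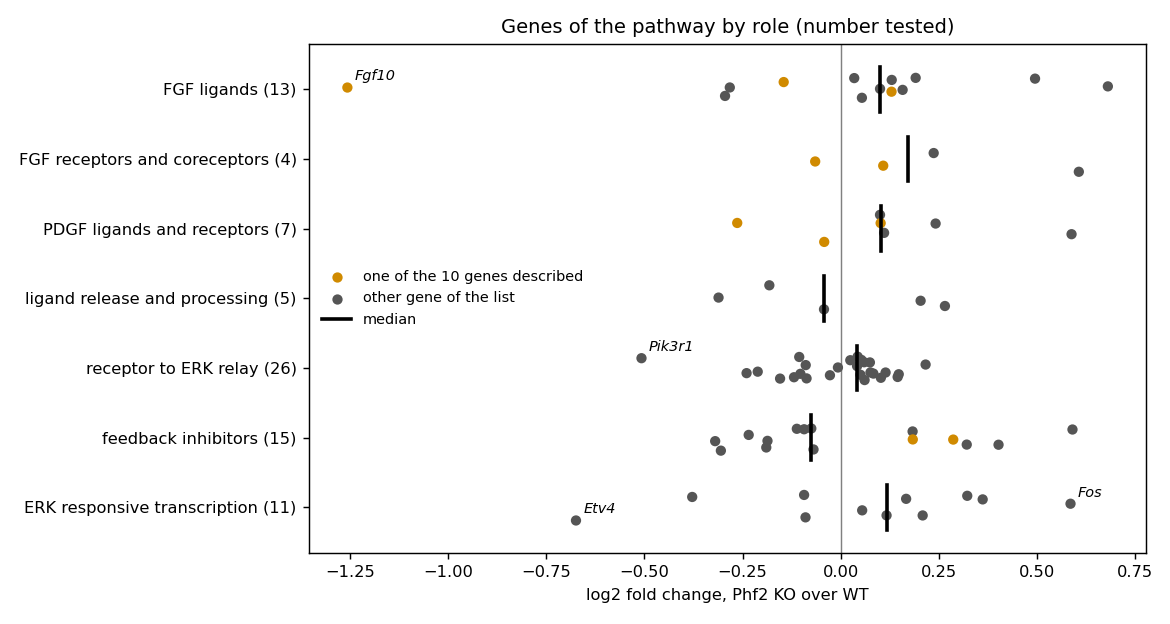
Log2 fold change of *Phf2* KO over WT for the genes tested in each of the 7 lists (number tested in brackets), with the 10 members in orange, other genes in gray and a bar at the median of each list. The medians lie between -0.08 and 0.17, and the labelled genes are *Fgf10* and the 3 genes with an unadjusted p under 0.05.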

How the data were processed

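The authors trimmed single 50 nt reads with Trim Galore, removed rRNA with bowtie2, mapped them with STAR (reverse-stranded setting, MGSCv37, that is mm9), and deposited raw featureCounts counts per gene symbol. Versions and the annotation release are not given in the sources used here. The authors' DESeq2 result table was not used. Counts were analyzed in R 4.3.3 with edgeR 4.0.16 (filterByExpr, TMM, estimateDisp, glmQLFit, glmQLFTest, genotype as the only term) and Benjamini-Hochberg adjustment, called at 0.1. DESeq2 1.42.0 and limma 3.58.1 were alternatives. The tests were also run on simulated counts that held no difference between replicate numbers. That setting is unlike these libraries, so it does not show how the tests perform here. The 95% intervals are the fitted value and its standard error with the quantile of the fit's total degrees of freedom. Exonic lengths and positions came from GENCODE M1 on NCBIM37 (mm9). By *Xist* and Y-linked counts, replicates 1 and 2 were not from the same embryo, while whether WT and *Phf2* KO libraries of a number share an embryo is not stated. The genes named are the 10 members, *Phf2*, and in each pathway list the 3 highest by mean CPM and those with an unadjusted p under 0.05, except 1 gene that is not reported here. Members and lists were chosen with earlier results of these data known. Libraries in each pair differed by more than sampling noise (chi-square per degree of freedom of at least 14.6). This value was lowest between WT and *Phf2* KO of the same number, 18.8 for replicate 1 and 14.6 for replicate 2. In the other pairs it lay between 35.1 and 55.1. Figures used Python 3.11.15 and Matplotlib 3.10.9.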

Additional observations from a re-analysis of the deposited data

How the results depend on the processing

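The number of members called was 0 under every tool, normalization, filter, threshold and left-out library tried, except with the replicate block. With the replicate number as a block, 2 of the 10 members were called, *Fgf10* (log2 fold change -1.29, adjusted p = 4.1e-09) and *Pdgfc* (-0.27, adjusted p = 0.0882, edgeR's quasi-likelihood test). Of the 81 pathway genes tested, members included, 16 were called, among them *Pik3r1*, *Fos*, *Furin* and *Etv4*. Over all genes 789 were higher and 711 lower, 11% of those tested. The difference between these shares was not tested. Neither the labels nor the paper pair libraries by number, so the block is an alternative. It leaves 1 residual degree of freedom, and its p-values rest on variance taken across all genes. Across genes, which are not independent, the log2 ratios of replicate 1 to 2 in the groups had a Pearson's r = 0.774, and the common dispersion was 0.00363 with the block and 0.0451 without it. Over all genes, 0 were higher and 1 lower without the block (211 and 365 at an unadjusted p under 0.05). DESeq2 gave 10 and 54 (1 pathway gene), edgeR's likelihood ratio test 3 and 38, and limma-voom and thresholds of 0.05 and 0.01 gave 0 and 0. With 1 library left out, which assumes that the lone library varies like the other group, 0 to 0 genes were higher and 0 to 0 lower. Of 120 alternative values of the members' fold changes, 7 turned sign, all with a library left out and all small. Over the 4 fits with a library left out, *Fgf2* ranged from -0.325 to 0.0245 (positive without WT replicate 2 or *Phf2* KO replicate 1), *Fgfr1* from -0.155 to 0.0284 (positive without WT replicate 2), *Fgfr2* from -0.119 to 0.302 (negative without WT replicate 1 or *Phf2* KO replicate 2), *Pdgfra* from -0.157 to 0.0759 (positive without WT replicate 1) and *Pdgfrb* from -0.0699 to 0.296 (negative without WT replicate 1). The cause of these differences between tools was not tested. With 36 counts in its lowest library, *Fgf10* carries more counting error than the receptors.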

Other observations

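Besides *Fgf10*, 3 genes of the pathway lists differed between replicates 1 and 2 by more than 1 log2 unit in the same direction in both groups, and all 3 were chosen after their values were seen. With *Fgf10* they made 4 of the 81 pathway genes tested, near the share of 4.79% over all genes tested. *Pdgfb*, a ligand for both PDGF receptors, was at 10.99 and 5.20 CPM in WT and at 16.8 and 7.57 CPM in *Phf2* KO MEFs (replicates 1 and 2). *Plau*, the urokinase gene, whose product activates PDGF-D, was at 72.4 and 30.2 against 83.0 and 35.2 CPM. *Dusp4*, a nuclear phosphatase of ERK, was at 17.2 and 7.55 against 21.8 and 9.15 CPM. The macrophage markers were also higher in replicate 1 of both groups, and their part in these values was not tested.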
